A study of Mus musculus with 84 samples.

Results

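The 39 genes described here encode the machinery that copies DNA in S phase, the part of the cell cycle in which the genome is duplicated. They were taken by symbol from a fixed list, and 39 of 39 had a row among the 20308 genes of the table. They were measured in 84 single cells. The cells came from mouse embryos at E11.5 (E for embryonic day), from the AGM, short for aorta-gonad-mesonephros, a part of the trunk around the dorsal aorta. Per the labels, cells were sorted as CD31+CD144+CD41-CD45-, which takes cells with the endothelial surface proteins CD31 and CD144 and leaves out cells with the platelet-lineage protein CD41 or the blood-cell protein CD45. They were captured on a microfluidic chip made for cells of 10 to 17 µm, so smaller or larger cells were not sampled. No strain, embryo or treatment is named for any cell. The 84 cells are therefore 1 group that counts as 1 sample, no test over cells was run, and every value is a description of these cells. Of the 15 pan-endothelial marker genes, 15 were detected in at least 60 cells each. Per cell, a median of 13 of them were at TPM 10 or more, from 0 to 15, and 80 of 84 cells held at least 3. Ptprc, which encodes CD45, was detected in 0 of 84 cells, which allows a share of up to 3.57% of cells with a detected transcript. Itga2b, which encodes CD41, was detected in 7 cells, 2 of them at TPM 10 or more, and reached 686 TPM.

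DNA replication is prepared in G1, when the origin recognition complex, Cdc6 and Cdt1 load the ring-shaped Mcm2-7 helicase onto origins; this is called licensing. At the start of S phase, Cdc45, the GINS complex and Mcm10 turn the loaded helicase on, and polymerases, a sliding clamp and ligase copy both strands while enzymes of nucleotide synthesis supply the building blocks. Most of these genes are transcribed under E2F factors, which cyclin E and its kinase help to release, whereas the genes of mitosis are transcribed later, in G2. Dividing embryonic endothelium is known to express both programmes.

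The promoters of 4 genes are shown because E2F is the factor family best known for driving these genes together. The motif searched was TTTCCCGC, TTTCGCGC, TTTGCCGC or TTTGGCGC on either strand, in the RefSeq sequence (GRCm38.p6) from 250 bases before to 50 bases after each annotated start. Promoters of 31 of the 39 genes were matched, and 11 of the 31 held the motif: Mcm3, Mcm5, Mcm6, Mcm7, Cdc6, Cdt1, Orc1, Pola1, Rfc3, Lig1 and Uhrf1. By promoter, 30.6% of the 36 sequences of these genes held it, against 2.26% of all 32851 promoter sequences. The 4 printed are those of the motif holders whose level followed that of the other 38 genes most closely over cells. They run 5′ to 3′ along the gene, and capitals mark the motif as it reads on that strand. The Lig1 sequence is 1 of 3 annotated starts and lies at chr7:13278576-13278875 on the plus strand, with the motif from base 277. That of Uhrf1, 1 of 2 starts, lies at chr17:56304063-56304362 on the plus strand, with the motif from base 66. Pola1 is read at chrX:93632106-93632405 on the minus strand and Cdc6 at chr11:98907901-98908200 on the plus strand, both with the motif from base 113. The motif was in 1 of the 3 Lig1 sequences and in 1 of the 2 Uhrf1 sequences. The annotated genes begin at 13277175 (Lig1), 56303337 (Uhrf1) and 98907709 (Cdc6), so these windows lie inside them, past the outermost start. The Pola1 gene spans up to 93632387, so its window also lies mostly inside the gene.
Lig1: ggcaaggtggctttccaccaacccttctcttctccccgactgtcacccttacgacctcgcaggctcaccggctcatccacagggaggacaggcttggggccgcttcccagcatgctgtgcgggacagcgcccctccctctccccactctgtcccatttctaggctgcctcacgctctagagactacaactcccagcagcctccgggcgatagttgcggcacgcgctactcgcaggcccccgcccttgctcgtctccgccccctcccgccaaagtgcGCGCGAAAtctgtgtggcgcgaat
Uhrf1: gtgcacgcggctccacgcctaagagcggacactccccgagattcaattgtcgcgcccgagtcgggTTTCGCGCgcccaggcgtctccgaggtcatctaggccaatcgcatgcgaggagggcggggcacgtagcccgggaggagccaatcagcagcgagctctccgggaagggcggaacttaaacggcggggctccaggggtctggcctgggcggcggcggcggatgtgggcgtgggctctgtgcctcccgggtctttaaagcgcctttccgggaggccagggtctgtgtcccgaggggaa
Pola1: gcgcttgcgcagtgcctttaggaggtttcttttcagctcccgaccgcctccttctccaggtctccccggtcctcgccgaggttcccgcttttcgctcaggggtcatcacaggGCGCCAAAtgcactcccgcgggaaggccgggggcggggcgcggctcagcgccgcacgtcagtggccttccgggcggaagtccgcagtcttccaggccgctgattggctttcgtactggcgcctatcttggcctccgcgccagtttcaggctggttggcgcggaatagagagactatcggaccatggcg
Cdc6: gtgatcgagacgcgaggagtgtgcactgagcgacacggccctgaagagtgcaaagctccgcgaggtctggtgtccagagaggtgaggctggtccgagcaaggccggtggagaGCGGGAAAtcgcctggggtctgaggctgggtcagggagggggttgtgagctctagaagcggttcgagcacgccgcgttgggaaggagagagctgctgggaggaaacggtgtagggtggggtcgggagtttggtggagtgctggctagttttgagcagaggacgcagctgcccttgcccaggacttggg
A match is a description of letters and not a binding site. The 11 genes with the motif had a median rank correlation of 0.42 with the mean level of the other 38 genes, from 0.21 to 0.58, and the 20 matched genes without it had a median of 0.38, from -0.052 to 0.73. CCAAT, which reads ATTGG on the other strand, was in 61.1% of the promoters of these genes against 37.4% of all promoters. The CHR element TTTGAA, known from promoters of mitotic genes and also searched as TTCAAA, was in 8.33% against 17.9%.

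Replication transcripts were present in nearly every cell. Expression is given as TPM, a transcript's share of all transcripts in a cell, which corrects for gene length and sums to the same total in each cell. TPM 1 was taken as the minimum for calling a gene detected. Of the 39 genes, 37 were detected in 42 or more of the 84 cells, against 34.6% of all genes in the table; the exceptions were Orc1 in 40 and Ccne1 in 41 cells. The median gene of the 39 was detected in 84.52% of cells, whereas the median gene of the table was detected in 16 cells. At TPM 10 or more, a cell held a median of 29 of the 39 genes. The quartiles were 24 and 32, the lowest cell held 12 and the highest 37. At least 20 were at that level in 72 cells, at least 30 in 38 cells, at least 35 in 10 cells and all 39 in 0 cells. Every cell thus carried replication transcripts, but few carried nearly the whole set. The summed TPM of the 39 genes had a median of 4595 per cell, from 1847 to 12863.

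**Figure D1:**
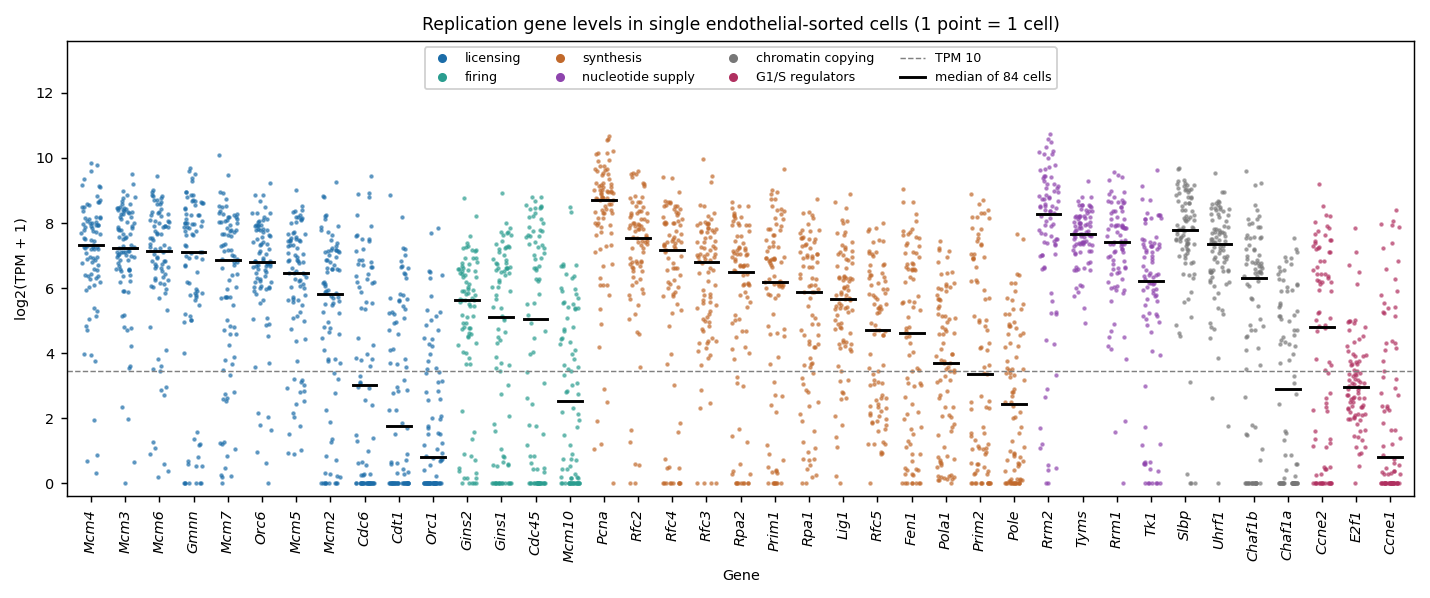
Level of each of the 39 genes as log2(TPM + 1), grouped by role and ordered by median within a role; each point is 1 of 84 cells, black bars are medians and the dashed line is TPM 10. Pcna and Rrm2 have the highest medians (418 and 307 TPM), and the loading factors Cdc6, Cdt1 and Orc1 have medians under the dashed line with many cells at 0.

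Among the 11 licensing genes, the helicase subunits were abundant, and Orc1, Cdc6 and Cdt1 were sparse. The 6 subunits of the Mcm2-7 helicase had medians between 54.9 TPM (Mcm2) and 159 TPM (Mcm4), and all 6 reached TPM 10 in 45 cells, with at least 1 at that level in every cell. Mcm4 (chromosome 16, 15623897 to 15637400 in GRCm38) was detected in 81 cells, and its highest value was 918 TPM. Mcm3 was detected in 82 cells with a median of 151 TPM. Mcm2 was the subunit missed most often, with 9 cells at 0. Orc6, a small subunit of the origin recognition complex, had a median of 111 TPM and was detected in 81 cells. Orc1, the subunit that is removed from chromatin after G1, had a median of 0.74 TPM, an upper quartile of 9.80 TPM and a highest value of 227 TPM. The helicase loader Cdc6 (chromosome 11, 98907709 to 98923942) was at 0 in 27 cells and at 692 TPM in the highest, with a median of 7.1 TPM, and 39 cells reached TPM 10. Cdt1, which brings the helicase to Cdc6, reached TPM 10 in 34 cells with a median of 2.42 TPM. These 3 genes were thus high in some cells and near 0 in many, unlike the helicase they serve. Geminin (Gmnn; chromosome 13, 24751845 to 24761937), the protein that binds Cdt1 and prevents relicensing, had a median of 136 TPM, quartiles of 35.6 and 305 TPM, and a highest value of 816 TPM. Of the 34 cells with Cdt1 at TPM 10, 32 also held Gmnn at TPM 10, while 36 cells held Gmnn alone, 2 held Cdt1 alone and 14 held neither. The rank correlation of the pair was 0.20. Transcripts do not give the proteins, which are degraded at opposite times of the cycle.

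The 4 firing genes were detected in 49 to 70 cells each. Cdc45 (chromosome 16, 18780447 to 18811972), which joins the helicase when an origin fires, was at 0 in 22 cells, at a median of 32.4 TPM and at 445 TPM in the highest cell. The GINS subunits Gins1 and Gins2 had medians of 33.4 and 48.8 TPM, and both reached TPM 10 in 45 cells, but their levels did not rank together (rho 0.017). Mcm10, a further activator, reached TPM 10 in 35 cells and had a median of 4.87 TPM. Cdc45, Mcm10 and Gins1 were at 0 in 17 to 22 cells each and Gins2 in 5, beside 0 to 9 for the helicase subunits.

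Of the 13 synthesis genes, the sliding clamp was the most abundant. Pcna (chromosome 2, 132249286 to 132253180), the ring that holds polymerases on DNA, was at 0 in 1 cell, at a median of 418 TPM and at 1631 TPM in the highest cell. The clamp loader subunits Rfc2, Rfc3, Rfc4 and Rfc5 had medians of 187, 110, 144 and 25.2 TPM, and all 4 reached TPM 10 in 40 cells. Although they form 1 complex, their pairwise rank correlations had a median of 0.064 and ran from -0.19 to 0.20. The polymerase genes were low: Pola1, the catalytic subunit of polymerase alpha, had a median of 11.98 TPM, and Pole, that of the leading-strand polymerase epsilon, 4.4 TPM. The primase subunits Prim1 and Prim2 had medians of 72.2 and 9.3 TPM. All 3 of Pola1, Prim1 and Prim2 were at TPM 10 in 26 cells, and none of them in 13. Rpa1 and Rpa2, which coat single-stranded DNA, had medians of 57.7 and 88.8 TPM. Lig1, the ligase that joins Okazaki fragments, had a median of 49.5 TPM and Fen1, the nuclease that trims them, 23.4 TPM. Each of the 50 cells with Fen1 at TPM 10 also had Pcna, its clamp partner, at that level, as did 78 cells in all.

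The nucleotide supply genes were detected most evenly. Tyms (chromosome 5, 30038546 to 30073645), which makes thymidylate, reached TPM 10 in all 84 cells, as none of the other 38 genes did, with quartiles of 152 and 287 TPM and a highest value of 620 TPM. Rrm2 (chromosome 12, 24708254 to 24714146), the S-phase-limited subunit of ribonucleotide reductase, had a median of 307 TPM and ran from 0 in 2 cells to 1707 TPM. Its partner subunit Rrm1, whose protein is known to be more constant over the cycle, had a median of 169 TPM and was detected in 83 cells. The rank correlation of Rrm1 with Rrm2 was 0.12. Tk1, the thymidine salvage kinase, had a median of 73.3 TPM and was at 0 in 7 cells.

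Of the 4 genes that copy chromatin, Slbp, which binds the stem-loop of histone mRNAs, had a median of 219 TPM and Uhrf1, which guides DNA methylation to new strands, 161 TPM. The chromatin assembly factor subunits differed, with a median of 77.6 TPM for Chaf1b and 6.6 TPM for Chaf1a, and both were at TPM 10 in 33 cells. Among the G1/S regulators, the cyclin E genes were on in part of the cells. Ccne2 (chromosome 4, 11190433 to 11204779) had a median of 27.1 TPM, was at 0 in 17 cells and reached 591 TPM, and Ccne1 had a median of 0.76 TPM and reached 337 TPM. Both were at TPM 10 in 23 cells, Ccne2 alone in 25, Ccne1 alone in 1 and neither in 35, so cells with Ccne1 were almost all cells with Ccne2. E2f1 (chromosome 2, 154559400 to 154569892), a transcription factor of this programme, behaved unlike the rest. It was above 0 in 83 cells but at a low level in most, with a median of 6.85 TPM and quartiles of 3.53 and 12.9 TPM. Of the 2156 genes above 0 in at least 83 cells, 281 had a median under TPM 10, as E2f1 did.

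The 39 genes varied together more than genes detected in at least 5 cells did as a whole, but each pair only weakly. Over the 84 cells the 741 pairs had a median Spearman rho of 0.167, with quartiles of 0.081 and 0.265, and 74 pairs were negative. A rho of 0.3 or more was found for 127 pairs (17.1%). Of all pairs of the 12318 genes detected in at least 5 cells, 0.908% reached it, and their median rho was 0.023. Those genes were not matched for detection to the 39, each of which was detected in at least 40 cells. The pair coefficients come from single-cell values that share a library and its number of detected genes. Given that number, the median over the 741 pairs was 0.143. Not adjusted for that number, the median ran from 0.116 to 0.343 within the 7 sets of 12 cells that share a library index.

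Rrm2 was at the centre of the shared variation. Its rho with the mean log2(TPM + 1) of the other 38 genes was 0.73, followed by Pcna (0.64), Gmnn (0.63), Lig1 (0.58), Uhrf1 (0.55) and Pola1 (0.55). Of the 6 pairs with the highest rho among genes detected in at least 42 cells, 5 held Rrm2: with Gmnn (0.61), Tk1 (0.57), Pcna (0.57), Ccne2 (0.54) and Uhrf1 (0.48). The other was Pcna with Lig1 (0.495). Rrm2 and Gmnn were both at TPM 10 in 66 cells and both below it in 9, with 7 cells holding Rrm2 alone and 2 holding Gmnn alone. At the other end, E2f1 had a rho of -0.052 with the other 38 genes, and the lowest pairs were Rrm1 with E2f1 (-0.29), Rfc2 with E2f1 (-0.21) and Rrm1 with Rfc3 (-0.21). Rfc2 and Rrm1, both abundant, followed the others little (rho 0.15 and 0.16).

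**Figure D2:**
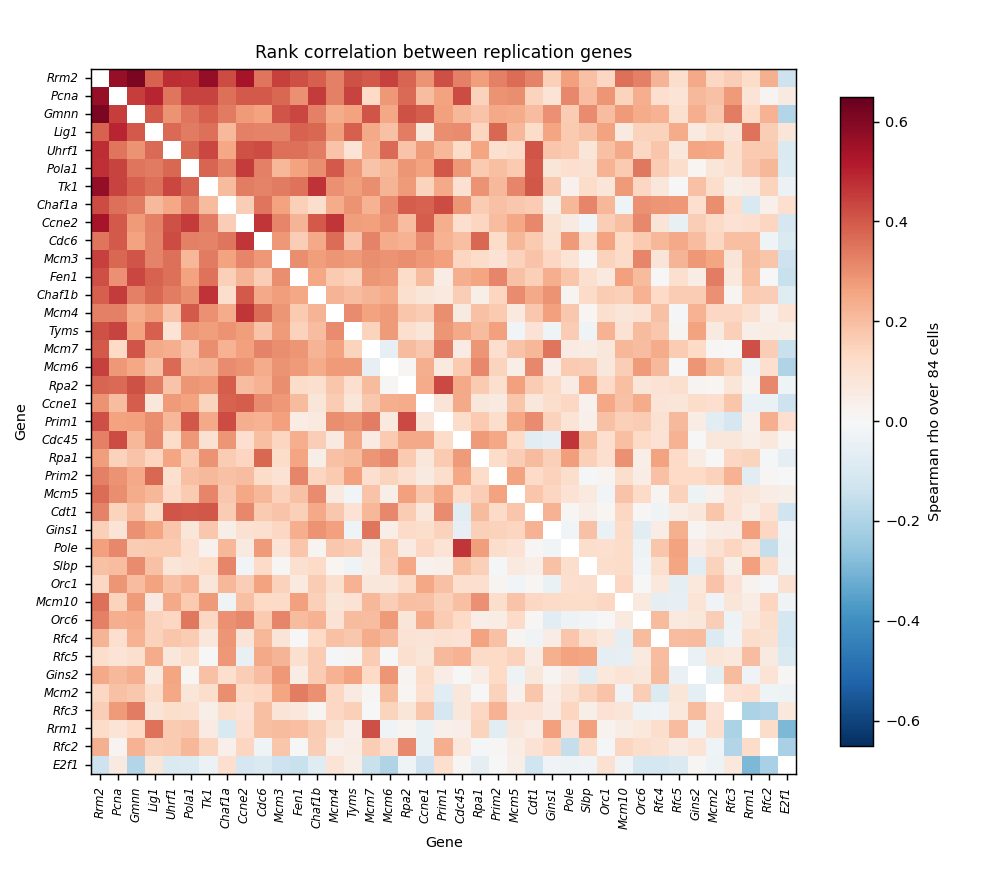
Spearman rho over 84 cells for each pair of the 39 genes, on a scale from blue (negative) to red (positive), with genes ordered by their rho with the mean of the other 38. The upper left corner, from Rrm2 and Pcna, holds the highest values (up to 0.61 for Rrm2 with Gmnn), and the row of E2f1 at the end is mostly at or below 0.

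Subunits of 1 complex mostly ranked together no more than other pairs did. Cyclin E2 and Cdc6, which both act before origins fire, had a rho of 0.465. Pola1 with Prim1 had 0.41, Rrm2 with Tyms 0.42, Ccne1 with Ccne2 0.40 and Fen1 with Lig1 0.39. In contrast, Rpa1 with Rpa2 had 0.17, Chaf1a with Chaf1b 0.12, Prim1 with Prim2 0.11 and Orc1 with Orc6 0.004. Between these lay Pcna with Fen1 (0.29), while Cdt1 with Cdc6 had 0.17 and Cdc45 with Gins2 -0.003. The 15 pairs within Mcm2-7 had a median of 0.18, close to the 0.167 of all 741 pairs. A transcript missed in 1 gene of a pair can lower a rho, and transcripts of both missed in the same cells can raise it. How many zeros are missed transcripts was not tested.

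The order relative to mitosis was described with a list of 55 mitotic genes, among them Birc5, Hmmr and Smc2, each detected in 84 cells, and Ube2c, detected in 83. The mitotic level is the mean log2(TPM + 1) of these genes, and the replication level that of the 39 genes. Over the 84 cells the levels had a rho of 0.209, whereas the replication level had a rho of 0.853 with the level of 64 other replication genes that include none of the 39. Of the 39 genes, 36 had a higher rho with the other replication genes than with the mitotic level, against 62.2% of the 12318 genes tested; Rfc2, Rrm1 and Rfc5 were the exceptions. A rho of 0.3 or more with the other replication genes was found for 28 of 39, against 4.64% of the genes tested, which were not matched to the 39 for detection. With the mitotic level it was found for 3 of 39, against 3.1%: Rfc5 (0.36), Cdc45 (0.33) and Gmnn (0.31). The median of the 39 was 0.37 with the other replication genes and 0.11 with the mitotic level, beside 0.088 and 0.048 over the genes tested. The number of genes detected in a cell moved with all 3 levels, with a rho of 0.46 for the replication level, 0.63 for the other replication genes and 0.32 for the mitotic level. Given that number, the rho of replication and mitotic level was 0.075. Not adjusted for that number, the rho of replication and mitotic level ran from -0.11 to 0.71 within the 7 index sets. Without the set with the highest value, the unadjusted rho was 0.116 over the other 72 cells. It was 0.444 over the 50 cells that did not carry 3 or more mesenchyme markers, and 0.411 over the 44 without such a number of markers of any other cell type.

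**Figure D3:**
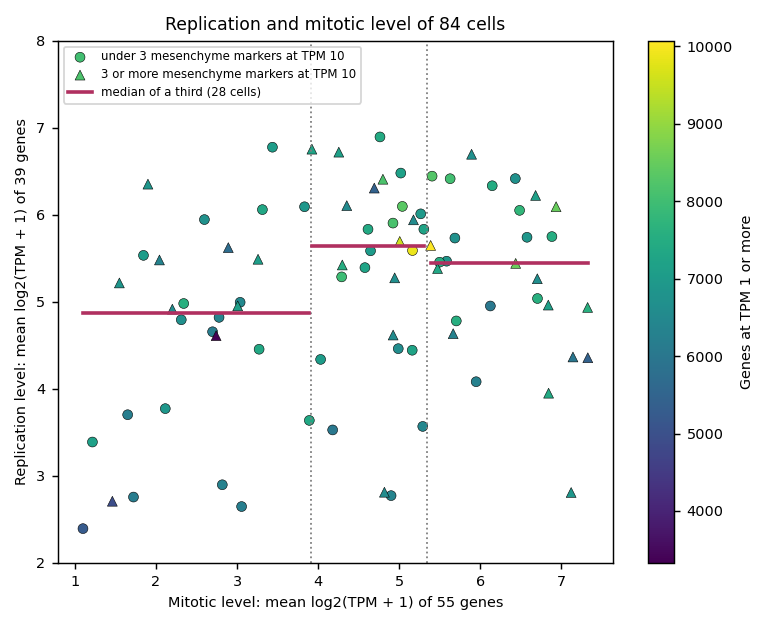
Replication level (mean log2(TPM + 1) of 39 genes) against mitotic level (mean of 55 genes) for 84 cells, coloured by the number of genes detected; triangles are cells with 3 or more mesenchyme markers at TPM 10, dotted lines split the cells into 3 groups of 28 by mitotic level and red bars are the group medians (4.87, 5.64 and 5.45). Each of the 3 groups holds cells of high replication level, with highest values of 6.78, 6.89 and 6.69. The group of highest mitotic level reaches from 2.81 to 6.69. The single cell of lowest mitotic level had a replication level of 2.39, and that of highest mitotic level 4.36.

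The 2 levels were also compared in groups of cells. When the cells were split by mitotic level into mitotic-low, mitotic-middle and mitotic-high groups of 28, the replication level had medians of 4.87, 5.64 and 5.45 and ranges of 2.39 to 6.78, 2.77 to 6.89 and 2.81 to 6.69. The groups overlapped almost fully, and their means were 4.63, 5.36 and 5.34, nearly equal in the middle and the high group. The groups are ranges of a continuous score, with 4 cells within 0.25 of the lower boundary and 11 within 0.25 of the upper. The number of the 39 genes at TPM 10 had medians of 26, 30.5 and 29.5, beside medians of 6716, 7148.5 and 7250 detected genes. Without the 28 mitotic-low cells the rho of the levels was -0.158 over 56 cells, and without the 28 mitotic-high cells it was 0.345. The groups were made from the mitotic genes, so the rise of their summed TPM, with medians of 1841, 4758 and 9667, was fixed in advance. For the pan-endothelial genes the medians of the summed TPM were 3615, 3219 and 2764. Their sums ran over 280 to 8809, 1446 to 10370 and 6.72 to 6713. What the number of detected genes contributes to these medians was not tested.

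Between the mitotic-high and the mitotic-low cells, the 39 genes differed by a median of 0.74 in mean log2(TPM + 1), with 30 of 39 higher and 9 lower, beside a median of 0.175 and 63.8% higher over the genes tested. A mean higher by at least 1 was found for 15 of 39 genes, against 11.3% of the genes tested, again not matched for detection. A mean lower by at least 1 was found for 0 of 39, against 2.43%. Cdc45 differed the most, by 2.92, with medians of 0.45, 37.2 and 108 TPM from the low to the high group. Prim1 was higher by 2.11, Gmnn by 2.06 and Rfc5 by 1.97, and the median of Gmnn went from 54.2 over 215 to 240 TPM. In each of these the mitotic-low cells still included cells at high values, so the groups overlapped. The genes on the lower side were Cdc6 (-0.97), Ccne2 (-0.92), Orc1 (-0.50), Mcm2 (-0.46), Pcna (-0.43), Cdt1 (-0.33), Mcm4 (-0.27), Mcm6 (-0.27) and Chaf1b (-0.24). Of these 9, 6 are licensing genes; the other 5 licensing genes, Orc6, Mcm3, Mcm5, Mcm7 and Gmnn, were higher by 0.59 to 2.06. Ccne2 had medians of 27.9, 37 and 7.6 TPM and was at TPM 10 in 15, 19 and 14 cells of the 3 groups. For Cdc6 the medians were 5.56, 10.0 and 1.32 TPM, and 13, 14 and 12 cells were at TPM 10. The number of cells with these genes therefore changed little, and the high values of each were spread over all 3 groups.

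**Figure D4:**
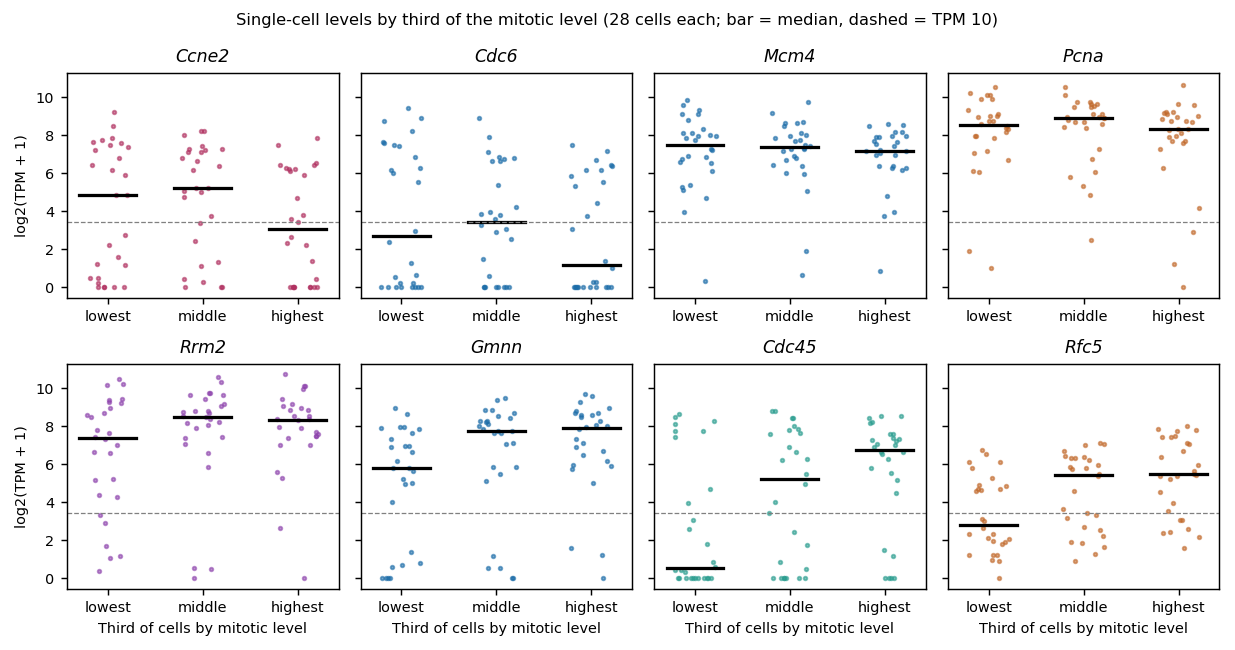
Levels of 8 of the genes as log2(TPM + 1) in the 3 groups of 28 cells with the lowest, middle and highest mitotic level; points are cells, bars are medians and the dashed line is TPM 10. Ccne2 and Cdc6 have their lowest medians in the highest group (7.6 and 1.32 TPM), and Gmnn and Cdc45 have theirs in the lowest (54.2 and 0.45 TPM), with all groups overlapping.

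Ordered by rho with the mitotic level, the 39 genes ran from Ccne2 (-0.16), Mcm4 (-0.15), Cdc6 (-0.14), Mcm6 (-0.14), Mcm2 (-0.13) and Pcna (-0.088) to Prim1 (0.28), Gmnn (0.31), Cdc45 (0.33) and Rfc5 (0.36). Most of the coefficients are weak, and neighbours in this order do not differ by more than their range over settings. Over 17 settings, which leave out cells or index sets or change the scale, 4 of 39 genes were negative in all (Ccne2, Cdc6, Mcm2 and Rfc3), against 14% of the genes tested. Positive in all were 23 of 39, against 32.8%, and 1 of 39, Rfc5, was at 0.3 or more in all, against 1.39%. Over all 84 cells 13 of 39 had a negative rho, against 35.2% of the genes tested. By role, 6 of 11 licensing genes had a negative rho, as did 1 of 4 firing, 2 of 13 synthesis, 0 of 4 nucleotide supply and 2 of 4 chromatin copying genes and 2 of 3 G1/S regulators. Without the mitotic-low cells, which was not among the 17 settings, 22 of 39 were negative, against 48.9% of the genes tested, led by Ccne2 (-0.32) and Pcna (-0.31).

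**Figure D5:**
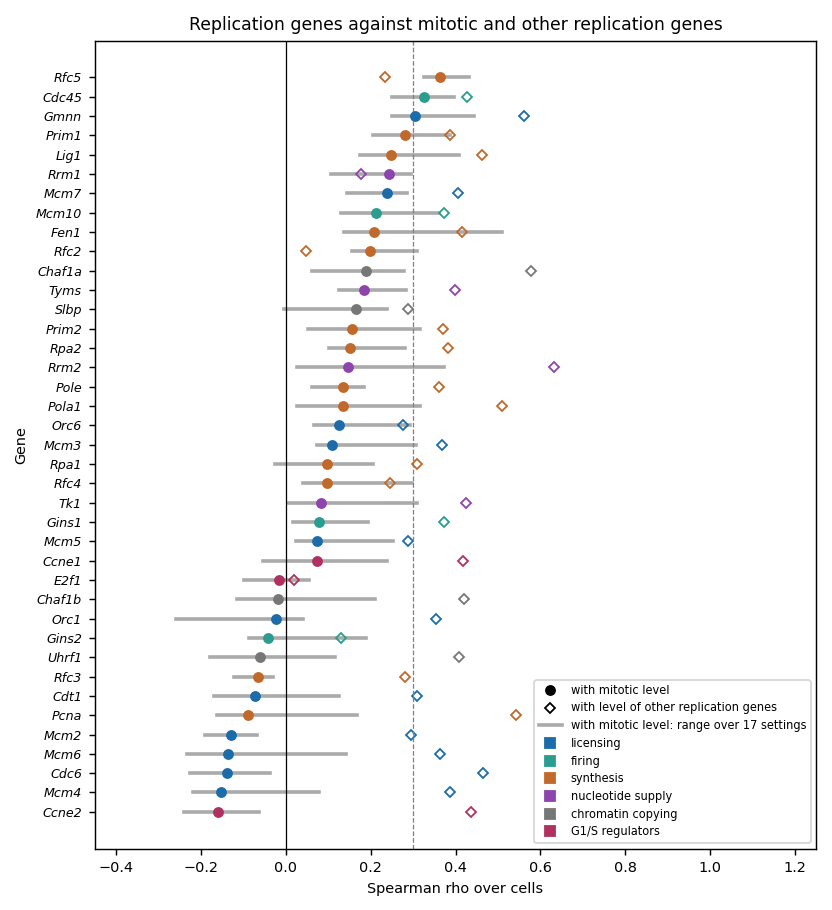
Spearman rho over cells of each of the 39 genes with the mitotic level (filled points, with grey bars from the lowest to the highest of 17 settings) and with the level of 64 other replication genes (open diamonds), ordered by the first; colours give the role and the dashed line is 0.3. For 36 genes the diamond lies to the right of the point, and 3 points lie past the dashed line.

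Single cells differed in the balance of both programmes. The mitotic-high cell with the lowest replication level had 50 of the 55 mitotic genes at TPM 10 and Ube2c, which targets cyclin B for destruction, at 3042 TPM, while Ccne2, Cdc6, Pcna, Rrm2 and Gmnn were each at 0. It held 15 of the 39 genes at TPM 10, among them Cdc45 at 154 and Tyms at 197 TPM, and 6898 detected genes, near the median of 6978. The mitotic-low cell with the highest replication level held 37 of the 39 genes at TPM 10, with Ccne2 at 591 and Rrm2 at 1192 TPM, and it also had 29 mitotic genes at TPM 10 and Ube2c at 487 TPM. Another mitotic-low cell had Cdc6 at 692 TPM, the highest of all, with Ccne2 at 196, Pcna at 432, Rrm2 at 663 and Gmnn at 124 TPM, but Ube2c at 6.38 TPM and 12 mitotic genes at TPM 10. It had 33 of the 39 genes at TPM 10 and 6880 detected genes. The cell with the lowest replication level held 12 of the 39 genes and 3 mitotic genes at TPM 10, with Pcna at 2.81 and Rrm2 at 1.29 TPM, and 5240 detected genes. These 4 cells were chosen after their values were seen. Gmnn, with its positive rho with the mitotic level over all cells, was at 0 in the mitotic-high cell and at 119 and 124 TPM in the mitotic-low cells of high replication level. The mitotic-high cell and the cell highest in Cdc6 had 3 or more mesenchyme markers at TPM 10.

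Of the markers of other cell types, those of mesenchyme were the most frequent. Of 11 such genes, 3 or more were at TPM 10 in 34 cells, against 0 to 4 cells for each of the erythroid, macrophage, megakaryocyte, smooth muscle, epithelial and neural lists. Their summed TPM had medians of 3.3, 5.8 and 70.96 in the mitotic-low, mitotic-middle and mitotic-high cells, with ranges of 0.04 to 1400, 0.39 to 1040 and 0.11 to 2854; 0 of the 11 were at 0 in all cells. The 34 cells and the other 50 held similar numbers of the 39 genes at TPM 10, with medians of 28.5 and 29. The median difference of the 39 genes was 0.243 in mean log2(TPM + 1), higher in the 34 cells, with 14 of 39 lower, beside -0.050 and 54.6% lower over the genes tested. Over the other 50 cells, where replication and mitotic level had a rho of 0.444 in place of 0.209, 10 of 39 genes reached a rho of 0.3 with the mitotic level, against 5.87% of the genes tested in the same cells. They were led by Fen1 (0.51), Gmnn (0.44), Lig1 (0.41), Rfc5 (0.41) and Prim1 (0.39). The part of mesenchyme transcripts in the weaker relation over all 84 cells was not tested.

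Other genes of the pathway were described by the same measures. Of the 64 other replication genes, 52 were detected in 42 or more cells, against 34.6% of all genes in the table. A rho of 0.3 or more with the level of the 39 genes was found for 32 of the 64, against 2.79% of the genes tested. With the mitotic level it was found for 7 of the 64, against 3.1% of the genes tested. Detected in all 84 cells were Mcmbp, which binds the helicase subunits (median 107 TPM), the thymidylate kinase gene Dtymk (225 TPM) and the histone chaperone gene Nasp (280 TPM). The clamp loader gene Rfc1 (73 TPM) was 1 of those detected in 83. Among the members of that list with a high rho with the level of the 39 genes, chosen after their values were seen, were the dUTPase gene Dut (0.58) and the checkpoint adaptor gene Clspn (0.50). The S and G2 cyclin gene Ccna2 was in that list but ranked more with the mitotic level (0.69) than with the 39 genes (0.37). Of the 55 mitotic genes, 4 had a rho of 0.3 or more with the replication level, against 2.79% of the genes tested. They were the condensin genes Ncaph (0.42), Ncapg (0.32) and Smc4 (0.31), and the topoisomerase gene Top2a (0.34). Of 11 genes linked to quiescence or inhibition of the cycle, 10 were tested and 0 had a rho at or beyond 0.3 in either direction, with a median of -0.021. As only 2.79% of the genes tested reached 0.3, a count of 0 among 10 genes does not set this list apart. The cyclin kinase inhibitor gene Cdkn1c was detected in 84 cells with a median of 297 TPM and had a rho of -0.10 with the replication level, and the antiproliferative gene Btg1, also in 84 cells, had -0.17. The highest in that list, chosen after its values were seen, was Cdkn1a, another inhibitor gene, with 0.26 and detection in 17 cells. The pan-endothelial genes had a median rho of 0.004 with the replication level.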

How the data were processed

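The deposited table holds TPM for 84 cells, and TPM keeps no sequencing depth, so the reads behind a value are unknown. Per the labels' protocols, cells on a microfluidic chip gave full-length SMARTer cDNA, and Nextera XT libraries (24 to a lane) were sequenced as single reads of 67 bp. RSEM 1.2.3, Bowtie 0.12.9, CASAVA 1.8.2 and the build mm10 are named in the submitters' processing notes. For their settings and the annotation, nothing is given in the sources used here. A value of 0 may be a missed transcript. Coordinates are those of RefSeq GRCm38.p6, which mm10 stands for, and 39 of the 39 genes matched by symbol.

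The members and gene lists were chosen with earlier results of these data known. Genes detected (TPM 1 or more) in at least 5 cells were tested, 12318 in all. They were not matched to the 39 genes, each detected in at least 40 cells, so shares over them include genes detected in fewer cells. Spearman coefficients were taken on TPM and levels as means of log2(TPM + 1), which understates differences of low genes, with Python 3.11.15, numpy 2.4.6, scipy 1.17.1 and pandas 2.3.3. The computation was tested on simulated data. No test over cells and no doublet caller was run. The genes named are all 39 and the 4 detected in most cells of each other list drawn on (ties in list order). Pairs and genes with the highest and lowest rho among genes detected in 42 or more cells are named too. Pairs of known partners were picked by hand outside this rule. Most other genes named are marked in the text as chosen after their values were seen. A planned protein stretch of the helicase subunits is not printed, since no protein sequences were used here. Alternatives changed the TPM threshold, pseudocount, coefficient, scaling (median of ratios over 1219 genes), filter and cells, left out each of 7 index sets of 12 cells, and held the number of detected genes fixed. Values of some genes of the other replication list are not reported here.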

Additional observations from a re-analysis of the deposited data

How the results depend on the processing

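Of 98 alternative values for the 6 summary results, 91 stayed within a limit, 6 moved further and 1 changed sign. The limit was 1 standard deviation over the index sets of 12 cells. For a share it was the exact 95% interval from 74.99% to 91.5%, and for counts 1.5 times. For the rho of replication and mitotic level that standard deviation was 0.279. Values of 0.4439, 0.4106 and, given the number of detected genes, 0.075 therefore counted as within the limit, beside 0.2086 over all cells. Sets of 12 cells make this limit wide, so the 91 do not show that this rho was stable. The median number of genes per cell went from 29 at TPM 10 to 33 at TPM 1 and 22.5 at TPM 50, and the median share of cells per gene from 84.52% to 94.05% when any value above 0 counted. The number of genes with a rho of 0.3 or more with the mitotic level went from 3 to 10 without the 34 cells with mesenchyme markers, to 9 without the 40 cells with markers of any other type, and to 0 without the mitotic-low cells. The rho of replication and mitotic level was 0.2086 over all cells and -0.1575 without the mitotic-low cells, while it was 0.4439 without the cells with mesenchyme markers and 0.4106 without those with markers of any other type; leaving out groups of cells by mitotic level was chosen after seeing the data. The cause was not tested. The median rho between the 39 genes stayed between 0.1429 and 0.1973. Between 35 and 37 of the 39 genes ranked more with the other replication genes than with the mitotic level. With all lists limited to genes detected in 42 or more cells, 34 of the 37 genes left did so. No paired analysis was possible because the cells form 1 group. Depth is unknown, so the limits it sets on genes with many zeros could not be given.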

Other observations

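Outside the lists drawn on above, with histone genes not left out, the genes whose levels ranked most with the mean level of the 39 replication genes, among 6867 genes detected in 42 or more cells, were Hist1h1b (rho 0.51), Esco2 (0.51), Tcf19 (0.50), 2700029M09Rik (0.47) and Zfp367 (0.45), followed by 4930422G04Rik, Fignl1, Pilra, Efcc1 and Ptges3 (0.43 to 0.45). Esco2 encodes an acetyltransferase of cohesin that acts in S phase, and Hist1h1b a linker histone. Tcf19 and Zfp367 had a rho of -0.047 and -0.17 with the mitotic level, whereas Hist1h1b and Esco2 had 0.46 and 0.48 with it. The lowest were Nras (-0.34), Gramd1a (-0.32), Gm11127 (-0.31), Zfp462 (-0.31) and Gm9846 (-0.31). These ends of a ranking over 84 cells of 1 sample share their libraries and numbers of detected genes.

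The table has 67 rows of histone genes that were taken as replication-dependent by the form of their symbol and not checked further. Of these, 11 were detected in 42 or more cells, against 34.6% of all genes in the table. The summed TPM of the 67 rows had a median of 238 in the mitotic-low, 949 in the mitotic-middle and 1240 in the mitotic-high cells. This sum had a rho of 0.35 with the replication level and 0.45 with the mitotic level. Hist1h2ap was detected in 73 cells with a median of 233 TPM and a highest value of 2156 TPM. Most of these mRNAs carry no poly(A) tail and the genes are near-identical copies, so single values are uncertain.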
